A study of Mus musculus with 10 samples.

Results

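The genes described are 10 members of the Ly6 cluster on mouse chromosome 15, namely Psca, Slurp1, Lypd2, Lynx1, Ly6d, Ly6k, Ly6e, Ly6a, Ly6c1 and Ly6h, out of 28193 genes measured. Members were the noncontrol array probes that carried 1 of these names, which gave 13 probes, and the group was chosen by the difference of Lypd2 between Ts15 cells, which are trisomic for chromosome 15, and diploid cells, among the highest on the array. For that reason every value of these genes in those cells is given as a description with no test.

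Ly6 proteins share a fold of disulphide-bonded loops, called the three-finger fold for its likeness to snake neurotoxins, and belong to the Ly6/uPAR family. Most are held at the outside of the cell membrane by a glycosylphosphatidylinositol (GPI) lipid anchor, and a few are secreted. Some act on nicotinic acetylcholine receptors, some mark blood and epithelial cell types in the mouse, and Ly6a, also called Sca-1, is known on fibroblasts and on blood stem cells as well.

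Expression was measured in mouse embryonic stem (ES) cells on 1-colour arrays, with 2 arrays per group and 10 in all. The trisomic lines Ts6, Ts8, Ts11 and Ts15 carry 1 extra copy of the chromosome in their name (6, 8, 11 or 15) and are labelled with the strain 129 S7/SvEvBrd, with no parent line named. Ts6 was taken at passages 9 and 18, Ts8 at 10 and 13, Ts11 at 8 and 11, and Ts15 at 11 and 14. The diploid control cells (WT, passages 18 and 20) are the line AB1, which is male. Replicates within a group are biological and were taken at different passages of 1 line. The p-values here rest on the spread between such passages, pooled over all groups, and not on the spread between independent lines. All cells grew on irradiated SNL76/7 fibroblast feeder cells, which were depleted by letting the harvested cells settle before RNA extraction. Ts6, Ts8 and Ts11 have 2 copies of the Ly6 cluster, as WT does. The 2 Ts15 arrays were on a slide of their own, so Ts15 cannot be told apart from that slide, and each other group filled its own column of the first slide. Every replicate 1 was in slide row 1 and every replicate 2 in slide row 2, so replicate number and slide row cannot be told apart.

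Levels are log2 processed signals from which the array's 75th percentile was subtracted, so a level of 0 equals that percentile. Levels of different probes are not set against each other. Between 71.4% and 80.2% of noncontrol spots per array were well above background, and replicate arrays correlated at 0.992 to 0.996 across genes. All 13 Ly6 cluster probes were well above background on all 10 arrays and passed the filter on dim probes. Slurp1, Psca and Ly6d still read below the array's median signal on every array, as did Lypd2 outside Ts15. No background was subtracted, so log2 differences at such dim signals can be understated. The 16 pluripotency markers examined were well above background on every array, with a mean log2 level of 3.05 to 3.46.

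Excerpts of the probe sequences are given below, and which transcripts they bind was not checked. The first 30 of the 60 bases are given for Lypd2, which set the choice of the cluster, and for Ly6h and Ly6c1, which were each read by a pair of probes. For Psca the 30 bases are bases 30 to 59 of the probe, and for Ly6k they are bases 28 to 57. Both hold, in capitals, the pattern TGNTGN, 12 bases of any kind and TGNAAN, searched as written in the probe, where N is any base. It was written to cover the cysteine codons and the asparagine codon near the end of the three-finger domain. TGN and AAN also match other codons, and the reading frame was not checked. The pattern was found in 2 of the 13 cluster probes and in 95 of 55681 probes on the array (0.171%). The sequences are written 5′ to 3′ from the array's own probe list.
Lypd2: actcccttgtccctgacatcccagttccct
Psca: acgTGCTGCTACTCTGACCTGTGCAATgtc
Ly6k: aagTGCTGTCAATGGGACTCATGTAATggt
Ly6h first probe: caacagcctggcctgaggggcattaactac
Ly6h second probe: gacttcgttaagcggcactttttctcagac
Ly6c1 first probe: tattatagtatcaccatccacacataagta
Ly6c1 second probe: agcagttacctgccgcgcctctgatggatt

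On the mm9 build named in the file headers, the cluster probes lie between bases 74546879 and 75395727 of chromosome 15, a span of 848.8 kb. The Lypd2 probe is at chr15:74562684-74562743 on the minus strand and the Ly6k probe at chr15:74627529-74627588 on the minus strand. The Psca probe, at chr15:74546879-74546938 on the plus strand, and the Ly6h probes, at chr15:75395175-75395234 and chr15:75395668-75395727 on the minus strand, mark the ends. The second Ly6c1 probe, at chr15:74877785-74877844, also lists the accession of Ly6c2, a near-identical neighbour, so reads of these 2 genes could not be separated by it.

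In Ts15 cells the cluster genes differed from WT by unlike amounts. The differences of the dim genes Slurp1, Psca and Ly6d can be understated, since no background was subtracted. Lypd2 and Ly6k were well above WT, Ly6e and Ly6a moderately above it, and Slurp1 and Ly6d a little below it. The log2 differences from WT were 1.94 for Lypd2, 1.39 for Ly6k, 0.45 for Ly6e, 0.40 for Ly6a, 0.21 for Lynx1 and for Psca, 0.20 for Ly6c1, 0.13 for Ly6h, -0.04 for Slurp1 and -0.15 for Ly6d. The median over the 10 genes was 0.21, against 0.19 over the 1105 genes measured on chromosome 15 and -0.01 over the other 27088 genes. Of the 10 genes, 8 were above 0, as were 71.9% of the chromosome 15 genes, and only Lypd2 and Ly6k passed log2(3/2), which is 0.585, the difference that transcript levels following 3 copies against 2 would give. On the chromosome 127 of 1105 genes passed it. Both Ts15 arrays lay above both WT arrays for 5 of the 10 genes, where 27.2% of all genes did, and below them for 1, Ly6d, where 30.0% of all genes did. These shares are over all chromosomes and were not taken for chromosome 15 alone.

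**Figure D1:**
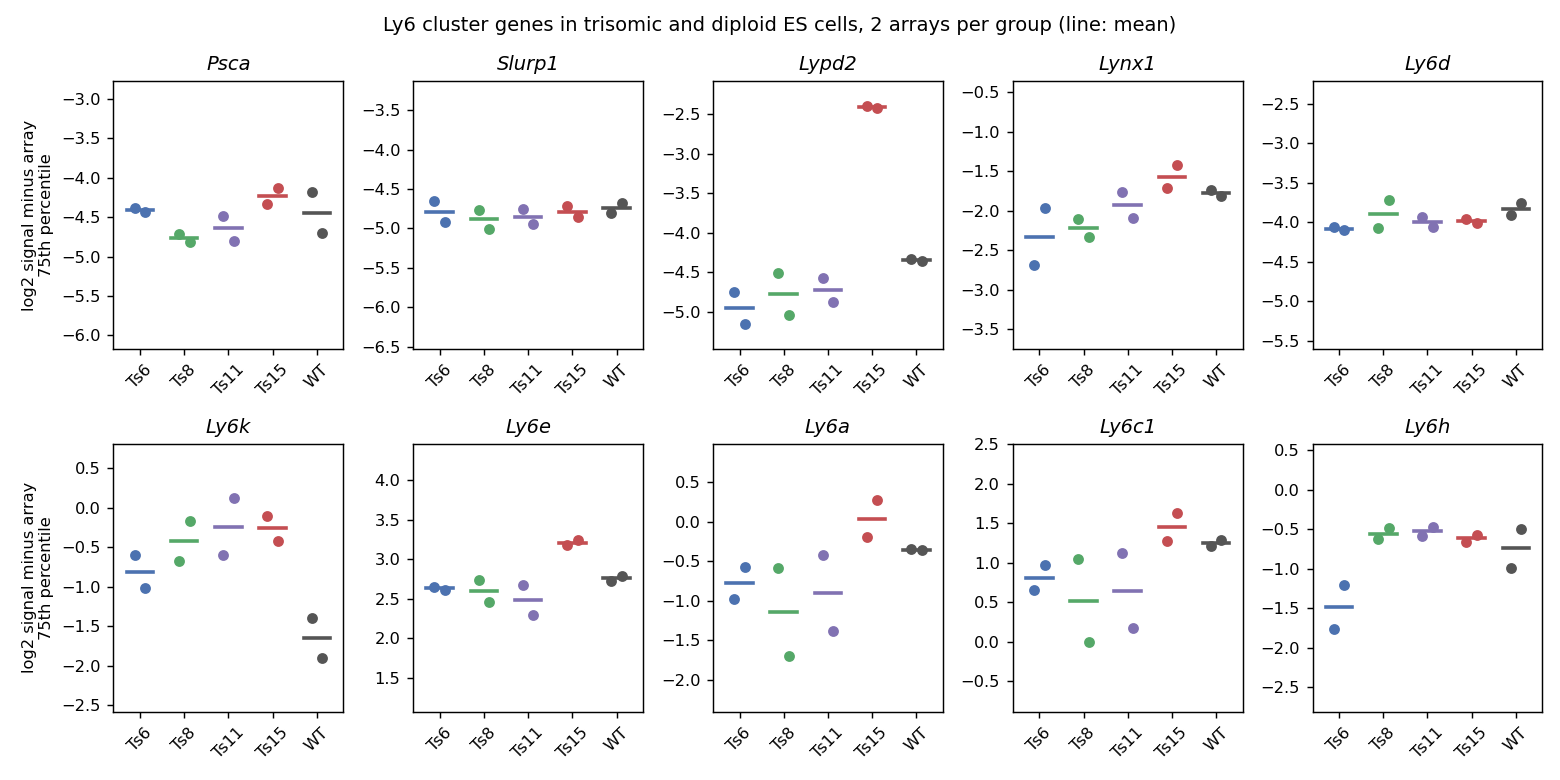
Level of each Ly6 cluster gene (log2 signal less the array's 75th percentile, vertical axis) on the 2 arrays of Ts6, Ts8, Ts11, Ts15 and WT, with points for arrays and a line for the group mean; panels have their own offset and the same height. Lypd2 stands high in Ts15, Ly6k is low in WT, and Ly6h is low in Ts6.

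Lypd2 encodes a predicted GPI-anchored member of the family. Its level was -4.75 and -5.16 on the Ts6 arrays, -4.51 and -5.04 on the Ts8, -4.58 and -4.88 on the Ts11 and -2.40 and -2.42 on the Ts15 arrays, against -4.33 and -4.36 on those of WT. The difference between Ts15 and WT was 3.84-fold. The Ts15 arrays thus stood clear of all 8 others, and all 6 arrays of the other trisomic lines lay below both WT arrays. By its Ts15 difference Lypd2 was rank 3 of 1105 genes on chromosome 15 and rank 38 of 28193 over the genome. Ts6, Ts8 and Ts11 differed from WT by -0.61, -0.43 and -0.38 (SE 0.21 each), with limma adjusted p of 0.12, 0.24 and 0.29.

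Ly6k is made in mouse testis germ cells, where it is needed for sperm to pass into the oviduct, and it associates there with the related protein Tex101. Its pattern differed from that of Lypd2, with WT apart from every trisomic line. The level was -0.60 and -1.02 on the Ts6 arrays, -0.67 and -0.16 on the Ts8, -0.60 and 0.12 on the Ts11 and -0.10 and -0.42 on the Ts15 arrays, against -1.40 and -1.90 on those of WT. All 8 arrays of trisomic cells were above both WT arrays. Ts6 lay below Ts15, and the other pairs of trisomic lines overlapped. The difference from WT was 1.41 in Ts11 (2.66-fold, SE 0.31, limma adjusted p = 0.034), 1.23 in Ts8 (adjusted p = 0.067) and 0.84 in Ts6 (adjusted p = 0.14), so Ly6k rose in Ts11 by the test used and missed the threshold in Ts8 and Ts6. These comparisons and that of Ts15 share the same 2 WT arrays. With passage as a covariate the Ts11 difference was 1.24 with adjusted p = 0.32. The WT cells were at passages 18 and 20 and the Ts11 cells at 8 and 11, while Ts6 replicate 2 was also at passage 18. Without Ts11 replicate 2 it was 1.05 (adjusted p = 0.13), without WT replicate 1 it was 1.66 (adjusted p = 0.058) and without WT replicate 2 it was 1.16 (adjusted p = 0.14). With slide row, which is also the replicate number, as a block the adjusted p was 0.052, and within rows 1 and 2 the single arrays differed by 0.80 and 2.02. Over all alternatives its adjusted p ranged from 0.026 to 0.32.

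Across all 10 genes, Ly6k in Ts11 was the only call (an adjusted p under 0.05) against WT in the lines with 2 copies of the cluster. It was 1 of 10 in Ts11, where 8.13% of all genes were called, with 1 cluster gene at an unadjusted p under 0.05. None was called by limma in Ts6, where 9.04% of all genes were called and 3 cluster genes had an unadjusted p under 0.05, or in Ts8, where 3.53% were called and 1 had an unadjusted p under 0.05. Of all 28193 genes, 7146 in Ts11, 7016 in Ts6 and 6971 in Ts8 had an unadjusted limma p under 0.05. The cluster counts at that level are thus no sign of a cluster effect. In Ts6, 7 of 10 genes had both arrays below both WT arrays, against 30.4% of all genes, and 1 had both above, against 27.1%. In Ts8 the counts were 5 below and 1 above, against 24.4% and 31.1% of all genes. In Ts11 they were also 5 below and 1 above, against 26.9% and 26.8% of all genes. The median difference from WT over the 10 genes was -0.33 in Ts6, -0.24 in Ts8 and -0.18 in Ts11, and over all genes it was -0.01, 0.04 and 0.00. The same WT arrays enter all of these counts.

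**Figure D2:**
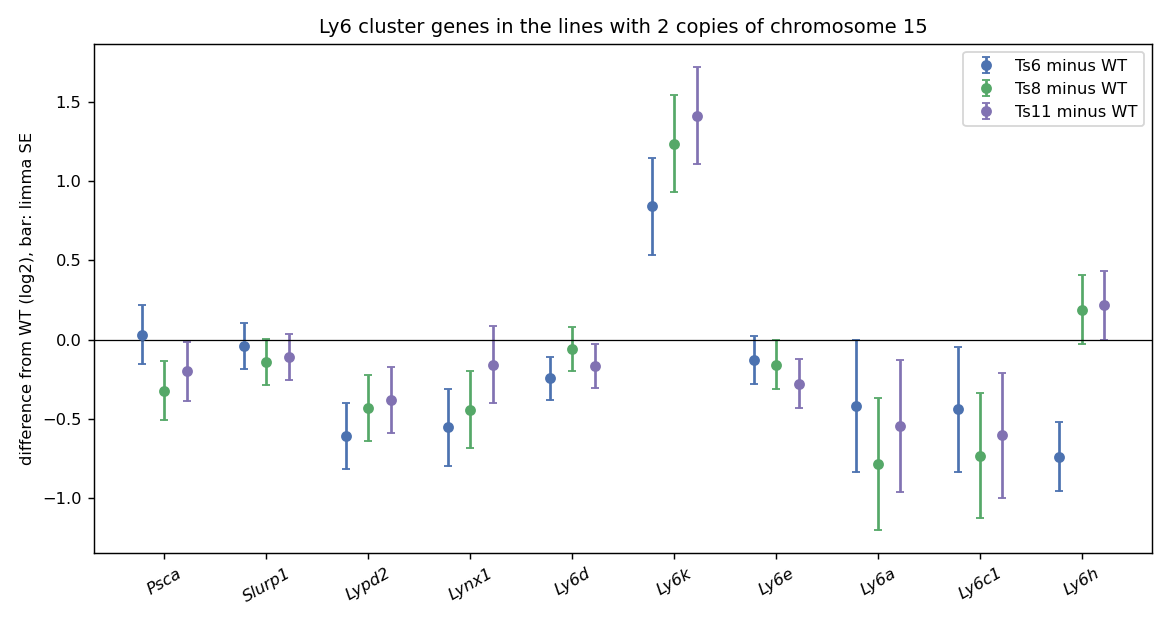
Difference from WT (log2, vertical axis) of each Ly6 cluster gene in Ts6, Ts8 and Ts11, in chromosomal order; points are limma estimates and bars 1 standard error. Ly6k is the gene with the highest values in all 3 lines, from 0.84 to 1.41, and most other points lie at or below 0.

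Slurp1, Lynx1, Ly6h and Psca are the members known to act on nicotinic acetylcholine receptors. Slurp1 is secreted by keratinocytes, Lynx1 and Ly6h are GPI-anchored proteins of neurons, and Psca, known in humans as an antigen of prostate cancer, acts on these receptors in chick neurons. Ly6h was low in Ts6, and the remaining groups overlapped. Its level was -1.76 and -1.20 on the Ts6 arrays, -0.63 and -0.48 on the Ts8, -0.59 and -0.47 on the Ts11 and -0.66 and -0.57 on the Ts15 arrays, against -0.99 and -0.50 on those of WT. Both Ts6 arrays were below all 8 others. Ts6 differed from Ts8 by -0.93 (1.90-fold, SE 0.22, limma adjusted p = 0.032), and it differed from Ts11 by -0.96 (1.94-fold, adjusted p = 0.041). Against WT the difference was -0.74 with adjusted p = 0.079, and with slide row as a block, a replicate block, the adjusted p was 0.034. Within rows 1 and 2, Ts6 differed from WT by -0.77 and -0.71. Ly6h was the 1 cluster gene called in each of these pairs of lines, in which 13.7% and 7.27% of all genes were called. No cluster gene was called, or had an unadjusted p under 0.05, by limma between Ts8 and Ts11. There 7.81% of all genes were called, and 6328 of 28193 had an unadjusted p under 0.05.

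The Ts6 values of Ly6h rest on few arrays. Without Ts6 replicate 1 the difference was -0.65 from Ts8 (adjusted p = 0.17) and -0.68 from Ts11 (adjusted p = 0.22). It was -0.85 without Ts8 replicate 2 (adjusted p = 0.15), -1.002 without Ts8 replicate 1 (adjusted p = 0.060), -1.02 without Ts11 replicate 1 (adjusted p = 0.11) and -0.90 without Ts11 replicate 2 (adjusted p = 0.15). Over all alternatives the adjusted p ranged from 0.008 to 0.17 against Ts8 and from 0.017 to 0.22 against Ts11. The second Ly6h probe read -4.47 and -3.83 on the Ts6 arrays, -3.27 and -3.02 on the Ts8, -3.33 and -2.88 on the Ts11 and -3.36 and -3.21 on the Ts15 arrays, against -3.61 and -2.86 on those of WT. It too had both Ts6 arrays below the others, with a Ts6 difference from WT of -0.91.

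Lynx1 was lower than WT on both arrays of Ts6 and Ts8, without passing the test. The level was -2.69 and -1.96 on the Ts6 arrays, -2.10 and -2.33 on the Ts8, -1.77 and -2.10 on the Ts11 and -1.71 and -1.42 on the Ts15 arrays, against -1.73 and -1.82 on those of WT. The differences from WT were -0.55 (adjusted p = 0.21) in Ts6, -0.44 (adjusted p = 0.30) in Ts8 and -0.16 (adjusted p = 0.73) in Ts11. The second Lynx1 probe gave -0.02, 0.17 and 0.15 for these, so the 2 probes did not have the same direction in Ts8 and Ts11. In Ts15 the second probe differed from WT by 0.014, against 0.21 for the probe standing for the gene. Slurp1 and Psca, both dim, varied little. Slurp1 ranged from -5.01 to -4.65 over the 10 arrays and Psca from -4.81 to -4.14, and their differences from WT in Ts6, Ts8 and Ts11 lay between -0.32 and 0.03, with adjusted p of 0.32 to 0.94.

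**Figure D3:**
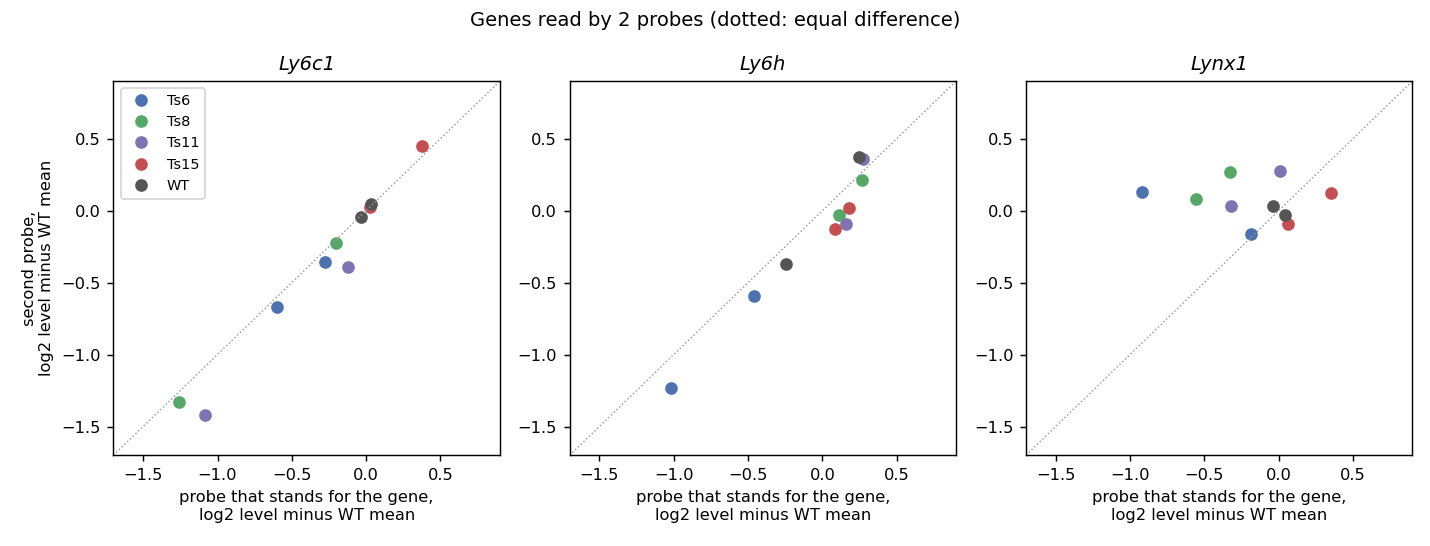
Level of the second probe against that of the probe standing for the gene, each as log2 level minus its own WT mean, for Ly6c1, Ly6h and Lynx1; each point is 1 array and the dotted line marks equal differences. Points of Ly6c1 and Ly6h follow the line, and those of Lynx1 do not.

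The receptor genes themselves were examined as a list of 16 nicotinic acetylcholine receptor subunits, 13 of them measured. In Ts6, 1 fell, Chrna4, a neuronal subunit, by 0.77 (limma adjusted p = 0.011), and in Ts8 and Ts11 none was called. The list's median difference from WT was -0.01 (Ts6), -0.0026 (Ts8), -0.05 (Ts11) and 0.13 (Ts15). Of 30 genes of GPI anchor synthesis and transfer, 28 were measured. Dpm1, a subunit of the enzyme that makes the mannose donor of the anchor, rose by 0.62 in Ts11 (limma adjusted p = 0.029), and none was called in Ts6 or Ts8. Their medians were 0.03 (Ts6), -0.19 (Ts8), 0.01 (Ts11) and 0.01 (Ts15). For these and the later gene lists, the share of all genes called against WT was 9.04% in Ts6, 3.53% in Ts8 and 8.13% in Ts11. No list was tested against these shares.

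Ly6a, Ly6c1 and Ly6e are GPI-anchored surface antigens. Ly6c1 marks monocytes and endothelium in the mouse, and Ly6e is induced by interferon and is a receptor for the placental fusion protein syncytin-A. Ly6a and Ly6c1 moved together from array to array and, in Ts8 and Ts11, differed most between replicates. Ly6a was -0.98 and -0.57 on the Ts6 arrays, -0.59 and -1.69 on the Ts8, -0.43 and -1.38 on the Ts11 and -0.19 and 0.27 on the Ts15 arrays, against -0.35 and -0.36 on those of WT. Replicate 2 of Ts8 and of Ts11 was the low one, and the 6 arrays of Ts6, Ts8 and Ts11 were all below WT. Over all genes, the deviations of replicates from the group mean correlated at 0.39 between Ts8 and Ts11, the highest of any pair of groups. Ly6c1 was 0.65 and 0.97 on the Ts6 arrays, 1.04 and -0.01 on the Ts8, 1.13 and 0.17 on the Ts11 and 1.27 and 1.62 on the Ts15 arrays, against 1.22 and 1.28 on those of WT. The Pearson correlation of both genes over the 10 arrays was 0.99, a description, since both are read on the same arrays. None of these differences from WT passed the test. For Ly6a they were -0.42 (adjusted p = 0.59) in Ts6, -0.78 (adjusted p = 0.28) in Ts8 and -0.55 (adjusted p = 0.45) in Ts11. Without Ts8 replicate 2 the Ts8 value was -0.23 and without Ts11 replicate 2 the Ts11 value was -0.070. For Ly6c1 the differences were -0.44 in Ts6, -0.73 in Ts8 and -0.60 in Ts11 (adjusted p of 0.55, 0.29 and 0.38), and -0.21 and -0.12 in Ts8 and Ts11 without these arrays.

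Ly6e was steadier. Its level was 2.65 and 2.61 on the Ts6 arrays, 2.74 and 2.46 on the Ts8, 2.67 and 2.29 on the Ts11 and 3.18 and 3.24 on the Ts15 arrays, against 2.73 and 2.79 on those of WT. Both Ts15 arrays were above the other 8, by a 1.37-fold difference from WT. The differences in Ts6, Ts8 and Ts11 were -0.13, -0.16 and -0.28, with adjusted p of 0.66, 0.55 and 0.30. Over the 10 arrays its correlation with Lypd2 was 0.92, again a description.

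In 7 of the 10 cluster genes (Lypd2, Ly6e, Ly6a, Ly6c1, Lynx1, Psca and Ly6h) both Ts15 arrays lay on one side of the WT mean and both arrays of at least 1 other line on the opposite side. The same held for 42.0% of all genes and 52.5% of the genes of chromosome 15. For Ly6h and Lynx1 the opposite sides held for the probe standing for the gene but not for the second probe. The cluster was chosen from the Ts15 values, so nothing is read from this count.

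Markers of feeder fibroblasts had the replicate order of Ly6a and Ly6c1 within each trisomic line. Of 28 such markers 27 were measured, and their mean log2 level was -0.63 and -0.30 on the Ts6 arrays, -0.18 and -0.47 on the Ts8, -0.10 and -0.47 on the Ts11 and -0.06 and 0.30 on the Ts15 arrays, against -0.09 and -0.03 on those of WT. As linear signal relative to the 75th percentile, the summed level was 81.2 to 94.5 in Ts6, 85.0 to 94.9 in Ts8, 89.8 to 101 in Ts11 and 111 to 118 in Ts15, against 100.1 to 104 in WT. Between 24 and 27 of the 27 were well above background on each array. In the order of arrays within each line, the feeder markers and Ly6a ran the same way in Ts6, Ts8, Ts11 and Ts15. The order was not particular to feeder markers. The mean of the 7 measured Ly6/uPAR genes of the region that are not members also ran this way, as did that of 30 interferon response genes. The latter was -0.18 and -0.15 on the Ts6 arrays, -0.59 and -0.79 on the Ts8, -0.13 and -0.39 on the Ts11 and -0.24 and -0.13 on the Ts15 arrays. The means of the remaining gene lists did not run this way in all of these lines. In Ts6, 2 of the 27 feeder markers fell, Col5a2 by 1.20 (well above background on 1 of 2 Ts6 arrays) and Pdgfra by 0.70, and none was called in Ts8 or Ts11. The part of these markers in the Ly6a and Ly6c1 values was not tested. In RNA of a whole culture, fewer cells of a type and less RNA per cell cannot be told apart.

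**Figure D4:**
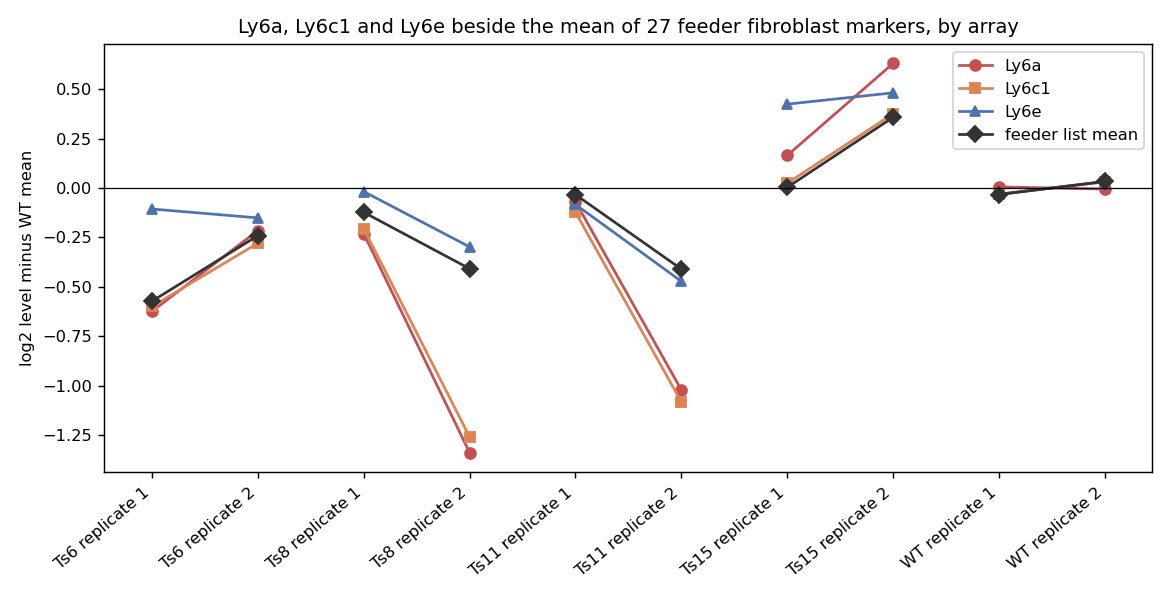
Log2 level minus the WT mean (vertical axis) of Ly6a, Ly6c1 and Ly6e, and of the mean of 27 feeder fibroblast markers, on each of the 10 arrays; lines join the arrays of a group. Ly6a and Ly6c1 are lowest in replicate 2 of Ts8 and of Ts11, where the feeder marker mean is also below that of replicate 1.

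Ly6d, a marker of early B lineage cells and of stratified epithelium in the mouse, was dim and stayed within a narrow range. It was -4.06 and -4.10 on the Ts6 arrays, -4.07 and -3.72 on the Ts8, -3.94 and -4.06 on the Ts11 and -3.95 and -4.01 on the Ts15 arrays, against -3.91 and -3.76 on those of WT. Its differences from WT in Ts6, Ts8 and Ts11 were -0.25, -0.06 and -0.17, with adjusted p of 0.32, 0.81 and 0.49. Of 13 measured markers of stratified epithelium, 2 fell in Ts6 (Perp by 0.83 and Krt1 by 0.80), none was called in Ts8 and 1 rose in Ts11 (Krt15 by 0.97). Of 13 measured blood cell markers, Gata1 rose by 1.38 in Ts6, where Tal1 fell by 2.01 and Csf1r fell by 1.15. In Ts11 Hba-a1 rose by 0.64, Tal1 fell by 1.68 and Csf1r fell by 0.89, and none was called in Ts8. Of 15 measured trophoblast markers, 2 rose in Ts6, Tpbpa, not well above background on either WT array, and Hand1, 1 fell in Ts8, Cdx2 by 1.39, and none was called in Ts11. Of the pluripotency markers, Dppa3 rose by 3.05 in Ts6 and by 3.22 in Ts11, Lin28a fell by 0.55 in Ts11 and Tfcp2l1 fell by 0.64 in Ts8. Of 30 interferon response genes, 3 rose in Ts6 (Irf7, Usp18 and Rsad2) and 1 fell (Tap1), 2 fell in Ts8 (Psmb8 and Gbp2) and none was called in Ts11, while Ly6e passed the test in none of the 3 lines.

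Between the outermost cluster probes, 15 further genes were measured. In Ts15 both arrays lay above both WT arrays for 8 of these 15, where 27.2% of all genes did. The share among chromosome 15 genes was not taken, so nothing particular to the interval is read from this count. The median difference of the 15 genes was 0.34, against 0.19 over the genes of chromosome 15. The highest was a transcript listed as ENSMUST00000055719, a cDNA named BC025446, at 505.52 kb from the Psca probe. It lay at -5.52 to -4.99 in Ts6, Ts8 and Ts11 and read -2.89 and -2.20 in Ts15, against -4.65 and -5.10 in WT, a Ts15 difference of 2.33. Slurp2, a secreted relative of Slurp1, was at -2.36 and -1.62 in Ts15, against -2.94 and -2.85 in WT. Them6, a thioesterase-family gene next to Psca, was at -0.01 and -0.09 in Ts15, against -0.79 and -0.66 in WT. Hemt1 read 1.64 and 1.41 in Ts15, against 1.10 and 0.91 in WT. Some neighbours were lower: Ly6m, well above background on 9 of 10 arrays, read -6.25 and -5.87 in Ts15, against -5.08 and -4.96 in WT, and Cyp11b2, the aldosterone synthase gene, read -5.84 and -6.18, against -5.39 and -5.02 in WT. Genes above and below WT were interspersed along the span.

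**Figure D5:**
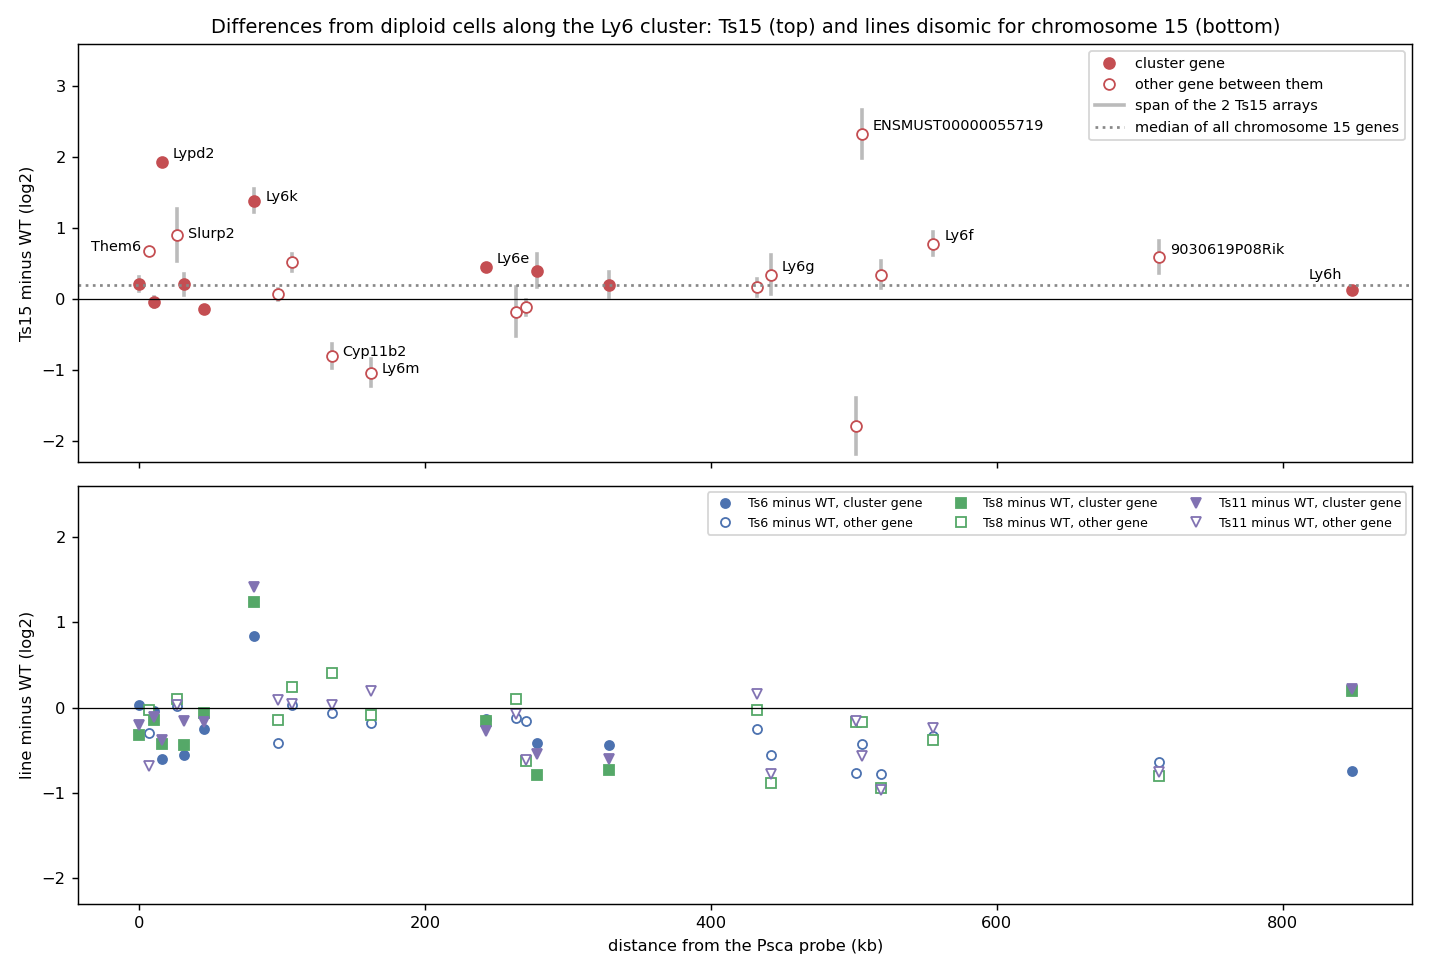
Difference from WT (log2, vertical axes) against distance from the Psca probe in kb (horizontal axis) for Ts15 (upper panel) and for Ts6, Ts8 and Ts11 (lower panel); filled symbols are the 10 cluster genes, open symbols the 15 genes between them, grey bars the span of the 2 Ts15 arrays and the dotted line the chromosome 15 median of 0.19. In Ts15, Lypd2 at 1.94 and Ly6k at 1.39 lie near genes close to 0, and in the lower panel Ly6k has the highest values, from 0.84 to 1.41.

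None of these 15 genes was called in Ts6, Ts8 or Ts11 by limma, where 9.04%, 3.53% and 8.13% of all genes were called. With so few genes at these shares, nothing particular to the interval is read from this. Ly6g, the neutrophil antigen, had the same replicate order as Ly6a within each trisomic line: it was -3.26 and -3.02 on the Ts6 arrays, -2.98 and -3.97 on the Ts8, -3.13 and -3.61 on the Ts11 and -2.51 and -1.97 on the Ts15 arrays, against -2.38 and -2.79 on those of WT. The gene 9030619P08Rik read -2.21 and -1.86 on the Ts6 arrays, -1.59 and -2.82 on the Ts8, -1.57 and -2.74 on the Ts11 and -1.04 and -0.59 on the Ts15 arrays, against -1.23 and -1.57 on those of WT. In both, replicate 2 was the low array of Ts8 and of Ts11, as for Ly6a. Probes of such close relatives can bind each other's transcripts, which these arrays do not resolve. Of 22 genes that flank the cluster, 17 were measured. Dennd3 rose by 0.55 in Ts6, Naprt fell by 0.71 in Ts8 and by 0.61 in Ts11, and Slc45a4 fell by 0.60 in Ts8. Their median difference from WT was 0.27 in Ts15.

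Of 12 listed Ly6/uPAR genes of the chromosome 15 region that are not members, 7 were measured and none was called against WT. Gpihbp1, which carries lipoprotein lipase across capillary walls, differed by -0.71 between Ts6 and Ts8 (adjusted p = 0.035) and by 0.87 between Ts8 and Ts11 (adjusted p = 0.025), and was well above background on 1 of 2 arrays in Ts6 and in Ts11. The first of these calls was lost in 6 of the alternatives and the second in 5, each time including fits with 1 array left out. Of 23 relatives on other chromosomes, 19 were measured. In Ts6, 3 rose and 2 fell, including Ly6g6c, which rose by 1.26, and Ly6g5b, which rose by 1.00, while Lypd6 fell by 1.43 and Lypd6b fell by 1.20 (limma adjusted p of 0.014, 0.028, 0.0088 and 0.027). In Ts8, Tex101 rose by 1.29 (adjusted p = 0.026). In Ts11, 4 rose and 1 fell: Ly6g5c by 2.58 (well above background on 1 of 2 WT arrays), Lypd9 by 1.83 and Tex101 by 1.19 were among those that rose, and Lypd6, a modulator of nicotinic receptors and of Wnt signalling, fell by 1.41. The share of all genes called was 9.04% in Ts6, 3.53% in Ts8 and 8.13% in Ts11, and the list was not tested against that share. Over the alternatives the number called in the list ranged from 0 to 5 in Ts6, 0 to 2 in Ts8 and 0 to 7 in Ts11. The median of this list was 0.17 (Ts6), 0.29 (Ts8), 0.30 (Ts11) and 0.19 (Ts15).

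Genes listed only by a transcript, clone or probe name, or as predicted genes, were left out of the search for likeness to Lypd2. Some of them may resemble it as closely. Of the rest, those whose levels most resembled Lypd2 over the 10 arrays were Col2a1 (Pearson r of 0.98), Fst (0.97), Dram1 (0.97), Bend5 (0.96) and Trmu (0.96). They are given as a description, since Lypd2 was picked for its Ts15 level and the Ts15 arrays share a slide. Col2a1, the cartilage collagen gene, and Trmu, a mitochondrial tRNA-modifying enzyme gene, lie on chromosome 15, and Fst, Dram1 and Bend5 on chromosomes 13, 10 and 4. Col2a1 averaged -0.90, -0.70 and -0.75 in Ts6, Ts8 and Ts11 and 0.62 in Ts15, against -0.30 in WT. Fst, which encodes the activin-binding protein follistatin, averaged 0.53, 0.65 and 0.80 in Ts6, Ts8 and Ts11 and 1.80 in Ts15, against 1.02 in WT. Dram1, a lysosomal membrane protein gene, averaged -2.32 in Ts15, against -3.47 in WT. In all 5 the Ts15 mean was the highest of the 5 groups and the WT mean the second highest. Lypd2 itself had this order and the genes were picked for likeness to it, so nothing further is read from the order.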

How the data were processed

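RNA of 10 cultures (5 groups, 2 biological replicates each) was read on 1-colour arrays. The authors' deposited intensity values came from Agilent Feature Extraction 10.7.3.1, per the file headers, which detrended the signals, subtracted no background and put surrogates in place of dim spots. The headers record no scaling between arrays. The authors' deposited log2 table correlated with the scanner's log2 values at 0.998 to 1.000 and had medians of -3.41 to -3.31; its normalization and centring stay unknown, so it was an alternative only. The file of Ts15 replicate 2 differed in 58 gene names from the others, whose names were used.

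Values were log2 processed signal minus the array's 75th percentile, averaged over spots of a probe. Of 55681 probes, 176 flagged on some array were left out, and a probe was kept if both arrays of some group had it well above background, leaving 43056. The probe with the highest mean stood for its gene, giving 28193 genes. Names were updated by RefSeq accession for 26756 of 28390 probes, and positions are mm9 as deposited. Limma 3.58.1 in R 4.3.3 was fitted to all 10 arrays with 1 mean per group (5 residual and 2.67 prior degrees of freedom), two-sided, with Benjamini-Hochberg adjustment over all genes of a comparison and calls at an adjusted p under 0.05. Tables used pandas 2.3.3 and numpy 2.4.6 in Python 3.11.15, and figures matplotlib 3.10.9. The script was tested on simulated data.

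The 10 members, the gene lists and the comparisons were chosen with earlier results of these data known. Named genes were the members, the 5 genes most correlated with Lypd2 among those with a symbol, and the genes between the outermost member probes. Up to 4 called genes per list and comparison with the largest differences were also named. Same-numbered replicates shared a slide row, per the file headers, and no other stated batch. The correlation of their deviations from the group means ranged from -0.10 (WT and Ts11) to 0.39 (Ts8 and Ts11) between groups, so the main fit did not pair them. The replicate block, which is also a slide row block, was an alternative. Alternatives were other normalizations, the deposited table, no filter, the mean of probes, a replicate block, passage as a covariate, only 2 groups, slide 1 alone and each replicate left out. Precision is limited by the 2 arrays per group.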

Additional observations from a re-analysis of the deposited data

Results flagged for a closer look

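Ly6h differed between lines by the test of the difference itself: Ts6 differed by -0.93 from Ts8 and by -0.96 from Ts11 on the log2 scale (limma adjusted p of 0.032 and 0.041). For 7 of the 10 genes both Ts15 arrays lay on one side of the WT mean and both arrays of at least 1 other line on the opposite side, as was so for 42.0% of all genes and 52.5% of the genes of chromosome 15; the difference between the lines was not tested, since the cluster was chosen from the Ts15 values. The Ts15 differences from WT were 1.94 for Lypd2, 0.45 for Ly6e, 0.40 for Ly6a and 0.20 for Ly6c1, each opposite to Ts6, Ts8 and Ts11. They were 0.21 for Lynx1, opposite to Ts6 and Ts8, 0.21 for Psca, opposite to Ts8 and Ts11, and 0.13 for Ly6h, opposite to Ts6. The second Ly6h probe gave a Ts15 difference of -0.054 and a Ts6 difference of -0.91, which have the same sign. The second Lynx1 probe gave 0.014 in Ts15, 0.17 in Ts8 and -0.015 in Ts6, so its Ts15 and Ts8 differences have the same sign.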

How the results depend on the processing

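Lypd2 in Ts15 was 1.94 above WT, 1.67 after normexp background correction with quantile normalization, and 1.92 to 1.96 with 1 array left out. The number of cluster genes called was 1 in place of 0 for Ts6 against WT under normexp and under the replicate block (Ly6h, adjusted p of 0.032 and 0.034). It was 0 in place of 1 for Ts11 against WT with no filter, the replicate block (Ly6k, adjusted p = 0.052), passage as a covariate, only the 2 groups and slide 1 alone. The count was also 0 with no filter, only the 2 groups and slide 1 alone for Ts6 against Ts8 and for Ts6 against Ts11, and 0 with the mean of all probes for Ts6 against Ts11. Leaving out 1 array gave 0 to 1 in these 4 comparisons. A crossed replicate block, in a fit of Ts11 and WT alone with the Ts11 replicate numbers swapped, was chosen after seeing the data. It joined arrays of different slide rows, a pairing that the design does not hold. It called Ly6k (adjusted p = 0.047) and 367 genes in all, and nothing on the Ly6k call is read from it.

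Genes called over the array, in the order Ts6, Ts8 and Ts11 against WT, Ts6 against Ts8, Ts6 against Ts11 and Ts8 against Ts11, were 2549, 994, 2292, 3860, 2051 and 2202. With no filter, 183 were called in Ts8, 1348 in Ts11, 1160 between Ts6 and Ts11 and 1457 between Ts8 and Ts11. With only the 2 groups the counts in that order were 1695, 0, 316, 1592, 542 and 353. With passage they were 829 in Ts6, 6 in Ts8 and 48 in Ts11, and with slide 1 alone 246 in Ts8 and 1488 in Ts11. Leaving out 1 array gave 797 to 1559, 13 to 1768, 803 to 1246, 1003 to 3957, 274 to 876 and 984 to 1897. The highest of these for Ts8 against WT, 1768, and for Ts6 against Ts8, 3957, came without Ts8 replicate 1. The cause was not tested. For the gene lists, 258 counts of called genes under an alternative differed by over 1.5 times from those reported and 592 did not.

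Direction changed only for small differences from WT that were not called. Lynx1 in Ts11 was 0.32 and Psca in Ts6 -0.072 with passage as a covariate. With 1 array left out, Lynx1 in Ts11 ranged from -0.32 to 0.0056, Ly6d in Ts8 from -0.24 to 0.12, Ly6h in Ts8 from -0.059 to 0.44 and in Ts11 from -0.031 to 0.47, Psca in Ts6 from -0.23 to 0.29 and in Ts11 from -0.46 to 0.059, and Slurp1 in Ts6 from -0.18 to 0.092. The replicate block is also a slide row block, since each replicate number filled 1 row. The block changed no other call on a cluster gene.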
